A study of Mus musculus with 45 samples.

Results

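The citric acid cycle enzymes followed here are 9 genes chosen by symbol, *Cs*, *Idh3a*, *Idh3b*, *Idh3g*, *Ogdh*, *Dlst*, *Suclg1*, *Fh1* and *Mdh2*, out of 55385 genes in the RNA-seq tables of a study of the ETS family transcription factor GABPA. Each symbol matched 1 gene, and all 9 passed the filter on low counts of 10 counts in every comparison. The study asked what GABPA does during pre-implantation development, and removed it with dTAG13, a small molecule that brings a protein carrying the degron tag to a ubiquitin ligase. All 18 RNA-seq libraries, controls included, came from mouse embryos or embryonic stem (ES) cells of the genotype *Gabpa*-dTAG/dTAG, in which both alleles carry the tag, and the controls received the DMSO solvent. Late two-cell embryos were cultured with 1 μM dTAG13 from the zygote on (3 libraries with dTAG13 and 3 with DMSO), morulae from the four-cell stage on (2 and 2), and the E4.5 ICM, the inner cell mass isolated by immunosurgery, from the early blastocyst on (2 and 2). The 2iES cells, E14 ES cells grown with MEK and GSK3 inhibitors and LIF on gelatin without a feeder layer, received 0.5 μM dTAG13 for 24 h (2 and 2). Embryos came from in vitro fertilization, the ES line was picked as single clones, and the labels do not say how many embryos a library holds or whether replicates are separate litters or cultures, so p-values measure the spread between these libraries, which may in part be technical.

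The citric acid cycle oxidises acetyl-CoA in the mitochondrial matrix and passes the electrons to the respiratory chain. Citrate synthase (*Cs*) opens the cycle. The NAD-dependent isocitrate dehydrogenase, built from the catalytic subunit *Idh3a* with *Idh3b* and *Idh3g*, and the 2-oxoglutarate dehydrogenase complex, built from *Ogdh* (E1), *Dlst* (E2) and *Dld* (E3), carry out its oxidative decarboxylations. Succinyl-CoA ligase (*Suclg1* is its alpha subunit), fumarase (*Fh1*) and malate dehydrogenase (*Mdh2*) lead back to oxaloacetate. Early mouse embryos live on pyruvate before they turn to glucose, and GABPA, also known as nuclear respiratory factor 2, is known to bind promoters of nuclear genes for mitochondrial proteins. Its partner GABPB forms a tetramer with it, and ETS factors read a purine-rich core.

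The promoters of the members that fell most are shown because CCGGAAG lies at or next to the RefSeq start of both. *Idh3g*, where it lies upstream, and *Mdh2*, which has GGAAG but no CCGGAAG, are shown for comparison. Each window is the RefSeq sequence of GRCm38.p6 from 250 bases before to 50 bases after the transcript start, on the strand of the gene. The gene coordinates given below start further upstream for *Idh3b* (130284547) and *Mdh2* (135778480), so positions hold for the RefSeq start only. Capitals mark matches to CCGGAAG or GGAAG on either strand (CTTCCGG or CTTCC when the match is on the other strand), and every CCGGAAG holds a GGAAG. They lie at chr2:130284402-130284701 on the minus strand for *Idh3b*, chr12:85110583-85110882 on the plus strand for *Dlst*, chrX:73786848-73787147 on the minus strand for *Idh3g* and chr5:135778399-135778698 on the plus strand for *Mdh2*.
Idh3b: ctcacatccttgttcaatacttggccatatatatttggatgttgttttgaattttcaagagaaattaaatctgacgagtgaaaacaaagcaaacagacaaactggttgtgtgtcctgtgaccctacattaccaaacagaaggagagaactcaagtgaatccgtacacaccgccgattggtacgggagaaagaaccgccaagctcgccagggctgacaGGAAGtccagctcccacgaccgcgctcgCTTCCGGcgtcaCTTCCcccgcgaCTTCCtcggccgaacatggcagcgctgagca
Dlst: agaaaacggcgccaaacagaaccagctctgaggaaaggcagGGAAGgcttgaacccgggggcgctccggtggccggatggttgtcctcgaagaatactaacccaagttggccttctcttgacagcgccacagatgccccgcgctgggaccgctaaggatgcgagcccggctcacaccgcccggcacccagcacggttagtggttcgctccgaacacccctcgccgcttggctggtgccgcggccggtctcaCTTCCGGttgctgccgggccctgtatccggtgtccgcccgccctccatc
Idh3g: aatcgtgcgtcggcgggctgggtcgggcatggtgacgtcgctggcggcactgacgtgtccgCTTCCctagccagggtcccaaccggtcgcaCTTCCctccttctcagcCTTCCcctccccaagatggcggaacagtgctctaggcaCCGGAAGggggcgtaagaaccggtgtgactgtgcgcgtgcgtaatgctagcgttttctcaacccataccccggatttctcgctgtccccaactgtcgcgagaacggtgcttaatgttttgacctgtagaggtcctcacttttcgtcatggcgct
Mdh2: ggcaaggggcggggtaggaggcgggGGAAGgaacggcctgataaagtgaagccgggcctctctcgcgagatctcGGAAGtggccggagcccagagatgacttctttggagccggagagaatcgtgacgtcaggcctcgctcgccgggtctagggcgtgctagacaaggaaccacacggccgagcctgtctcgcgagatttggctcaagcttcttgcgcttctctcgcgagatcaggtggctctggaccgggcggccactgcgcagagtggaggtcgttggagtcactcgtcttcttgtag

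The window of *Idh3b* holds its CCGGAAG match from 5 bases before the transcript start (position -5, with the start as position 0) to position 1, and that of *Dlst* from position 1 to 7. In *Idh3g* the match lies upstream, from position -104 to -98. RefSeq windows were at hand for 8 of the 9 members, all but *Idh3a*, with 6 windows for *Ogdh*, and CCGGAAG was found in none of those of *Cs*, *Ogdh*, *Suclg1*, *Fh1* and *Mdh2*. Among all 32851 windows of the same length in the mouse table, 8.86% held CCGGAAG at least once. The shorter GGAAG was found 4 times in *Idh3b*, *Idh3g* and *Fh1* and 2 times in *Cs*, *Dlst*, *Suclg1* and *Mdh2*. At least 1 GGAAG lay in 71.41% of all windows and at least 4 in 6.04%, so a single one is common. A match describes letters only, and binding of GABPA at these windows was not analysed here.

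**Figure D1:**
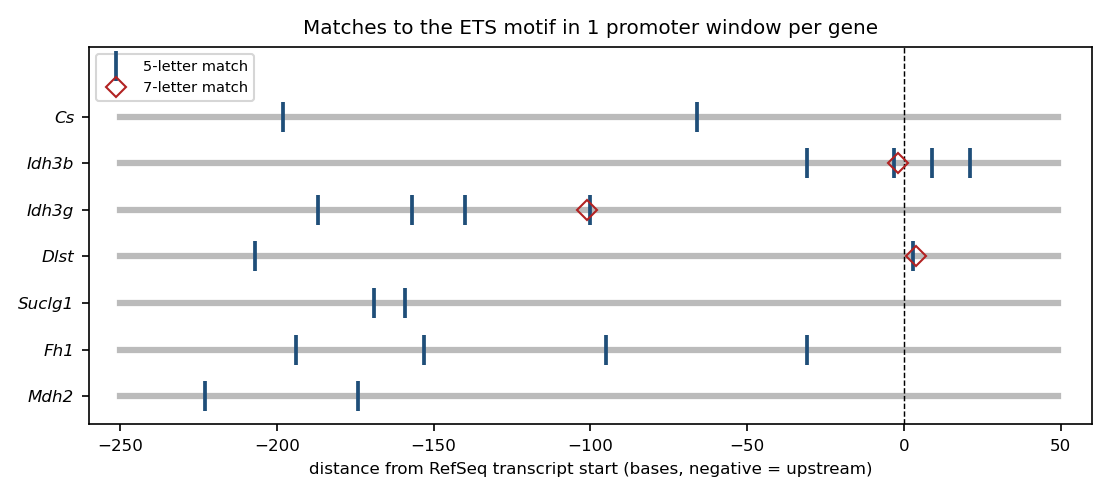
Positions of matches to GGAAG (bars, 5 letters) and CCGGAAG (diamonds, 7 letters) on either strand in the 300-base RefSeq window of 7 members, by distance from the transcript start in bases. The longer match covers the start in *Idh3b*, begins at position 1 in *Dlst* and at position -104 in *Idh3g*, and the other 4 have none.

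Expected counts, the numbers of reads that RSEM assigns to each gene, summed to 20449966 to 23718870 per late two-cell library, 9457933 to 12382705 per morula library, 18266057 to 20818291 per E4.5 ICM library and 20146785 to 27660132 per 2iES library. The spread between replicates also differed, with a biological coefficient of variation of 0.284 at the late two-cell stage, 0.213 in morulae, 0.159 in 2iES cells and 0.0237 in the E4.5 ICM, so that small changes reached low adjusted p-values in the E4.5 ICM. *Gabpa* mRNA, which dTAG13 does not act on, was not lower with dTAG13 at any stage, with log2 fold changes of 0.52 at the late two-cell stage (adjusted p = 0.0124), 0.74 in morulae (adjusted p = 0.152), 0.95 in the E4.5 ICM (adjusted p = 7.77e-19) and 0.93 in 2iES cells (adjusted p = 0.00136). By TPM its mean in the E4.5 ICM went from 10.6 with DMSO to 27.4 with dTAG13, a larger rise than by counts. The mRNA gives no reading of the protein. Of the markers of the labelled cells, the 4 two-cell markers were found at 1 TPM or more in every late two-cell library and the 6 epiblast (EPI) markers in every DMSO library of the E4.5 ICM and 2iES cells, while the 4 cumulus cell markers summed to at most 0.24 TPM and the 4 fibroblast markers to at most 0.69 TPM in any library. In the E4.5 ICM the 6 trophectoderm (TE) markers summed to 66.5 to 72.5 TPM with DMSO and 775 to 776 TPM with dTAG13, the EPI markers to 481 to 489 and 203 to 210 TPM, and the 5 primitive endoderm (PrE) markers to 221 to 230 and 295 to 297 TPM. In late two-cell embryos the 4 oocyte markers summed to 1330 to 1344 TPM with DMSO and 1689 to 1925 TPM with dTAG13. The part of these shifts in the results below was not tested, and in bulk samples fewer cells of a type and less RNA per cell cannot be told apart.

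Without dTAG13, the cycle enzymes did not rise together. Levels are given as TPM, an abundance scaled by gene length and by the library's total, which lets genes be set side by side. At the late two-cell stage *Mdh2* led with a mean of 384 ± 7.32 TPM (SD, n = 3), followed by *Idh3g* with 182 ± 29.0 TPM. *Ogdh*, *Cs*, *Idh3b*, *Suclg1* and *Idh3a* followed between 38.6 ± 4.49 and 24.3 ± 3.68 TPM, and each of these overlapped its neighbour in this order. *Fh1* lay below them at 13.9 ± 1.96 TPM, and *Dlst* was lowest at 2.44 ± 0.692 TPM. In morulae *Mdh2* led at 345 ± 79.3 TPM (n = 2), *Suclg1* and *Idh3g* overlapped at 182 ± 9.74 and 178 ± 89.4 TPM, *Idh3b* (112 ± 0.488), *Idh3a* (65.3 ± 19.1), *Fh1* (48.1 ± 1.29) and *Cs* (46.6 ± 0.233) followed without overlap, and *Dlst* and *Ogdh* overlapped at 11.9 ± 2.06 and 11.2 ± 1.84 TPM. In the E4.5 ICM the order was *Mdh2* (555 ± 11.6 TPM, n = 2), *Idh3g* (456 ± 2.28), *Suclg1* (289 ± 0.163), *Idh3b* (168 ± 8.73), *Idh3a* (133 ± 0.0566), *Fh1* (59.7 ± 1.40), *Cs* (48.5 ± 0.163), *Dlst* (24.4 ± 0.0354) and *Ogdh* (24.0 ± 0.339), and no neighbours but *Dlst* and *Ogdh* lay within 1 TPM of each other. In 2iES cells *Mdh2*, *Idh3g* and *Suclg1* also led, at 499 ± 95.0, 316 ± 50.2 and 288 ± 27.4 TPM, with *Idh3g* and *Suclg1* overlapping. *Idh3a* (142 ± 22.2), *Idh3b* (106 ± 17.4), *Fh1* (52.5 ± 1.61), *Cs* (26.9 ± 1.74) and *Ogdh* (9.21 ± 0.460) followed without overlap, and *Dlst* was again lowest at 4.91 ± 0.255 TPM.

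Stages were compared over the 9 DMSO libraries in 1 edgeR fit. Here and below, calling a gene took 3 conditions, namely an adjusted p-value below 0.05, a difference of 2-fold or more, and an FPKM averaging 1 or more in either group. From the late two-cell stage to the morula 5 of 9 members were called higher and none lower, where 22.6% of all genes tested were called higher and 27.7% lower. By the adjusted p-value alone 6 rose and none fell, where 31.2% and 38.0% of all genes did, and the median log2 change was 1.03 for the members and -0.28 for all genes. The largest rises were those of *Suclg1* (log2 fold change 2.59, SE 0.15, adjusted p = 1.58e-08) and *Dlst* (2.56, SE 0.20, adjusted p = 2.95e-07). *Suclg1* went from 23.0, 26.6 and 24.1 TPM to 175 and 189 TPM. *Idh3b* rose by 1.82 (SE 0.14), *Idh3a* by 1.59 (SE 0.18) and *Fh1* by 1.03 (SE 0.20) on the log2 scale, and *Cs* by 0.70 (SE 0.14), under the fold threshold. *Ogdh* counts differed by -0.04 (SE 0.18, adjusted p = 0.864), while its TPM went from 34.2 to 43.2 with DMSO at the late two-cell stage to 9.91 and 12.5 in morulae, a disagreement taken up below. *Idh3g* (0.38) and *Mdh2* (0.10) missed the threshold and moved with the morula libraries used, at 0.80 (adjusted p = 0.00258) and 0.35 (adjusted p = 0.0468) without DMSO replicate 1 and at -0.17 and -0.16 without DMSO replicate 2. From the morula to the E4.5 ICM no member was called, where 16.0% of all genes were called higher and 13.2% lower. By the adjusted p-value alone 6 rose, by 0.56 to 0.95 on the log2 scale, and none fell, where 24.6% and 21.0% of all genes did. Of these, *Idh3b* (0.84, SE 0.16) kept an adjusted p-value under 0.05 whichever library was left out. It was lost for *Idh3g* without morula DMSO replicate 1 (0.53) or E4.5 ICM DMSO replicate 1 (0.84), for *Fh1* without the same libraries (0.72 and 0.74), for *Idh3a* without them or E4.5 ICM DMSO replicate 2 (0.48, 0.67 and 0.69), for *Suclg1* without any of these 3 (0.42, 0.47 and 0.50), and for *Dlst* without morula DMSO replicate 2 or either E4.5 ICM library (0.61, 0.66 and 0.70). Without morula DMSO replicate 2, 3 members were called higher, and *Mdh2* (0.41, adjusted p = 0.0738) reached 0.67 (adjusted p = 0.00627). Set against the E4.5 ICM, 2iES cells had less *Dlst* (log2 fold change -1.77, SE 0.22, adjusted p = 5.98e-05), the only member called, where 12.7% of all genes were called lower and 12.0% higher, and less *Ogdh* (-0.86, SE 0.19, adjusted p = 0.00374). *Idh3a* was higher by 0.75 (adjusted p = 0.00922), *Fh1* by 0.60 (adjusted p = 0.0395) and *Suclg1* by 0.51 (adjusted p = 0.0198), so that 3 members were higher and 2 lower by the adjusted p-value alone, where 21.9% and 20.7% of all genes were. Scaling by library totals, which moved the median of all genes by -0.33, gave adjusted p-values of 0.257, 0.678 and 0.859 for these 3, and lower *Cs* (-0.70, adjusted p = 0.00176) and *Idh3b* (-0.62, adjusted p = 0.00505). They also missed the threshold without either E4.5 ICM library (0.77 and 0.74 for *Idh3a*, 0.67 and 0.53 for *Fh1*, 0.53 and 0.50 for *Suclg1*) or without 2iES replicate 1 (0.63, 0.55 and 0.49), and *Fh1* without 2iES replicate 2 (0.67), which took *Mdh2* past it (0.61 in place of 0.43). Stage cannot be told apart from input or library batch in these comparisons. The 5 PrE markers summed to 221 to 230 TPM with DMSO in the E4.5 ICM and to 0.22 to 0.56 TPM in 2iES cells. Depth also differed between the stages. The part of depth and of cell makeup in these differences was not tested.

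**Figure D2:**
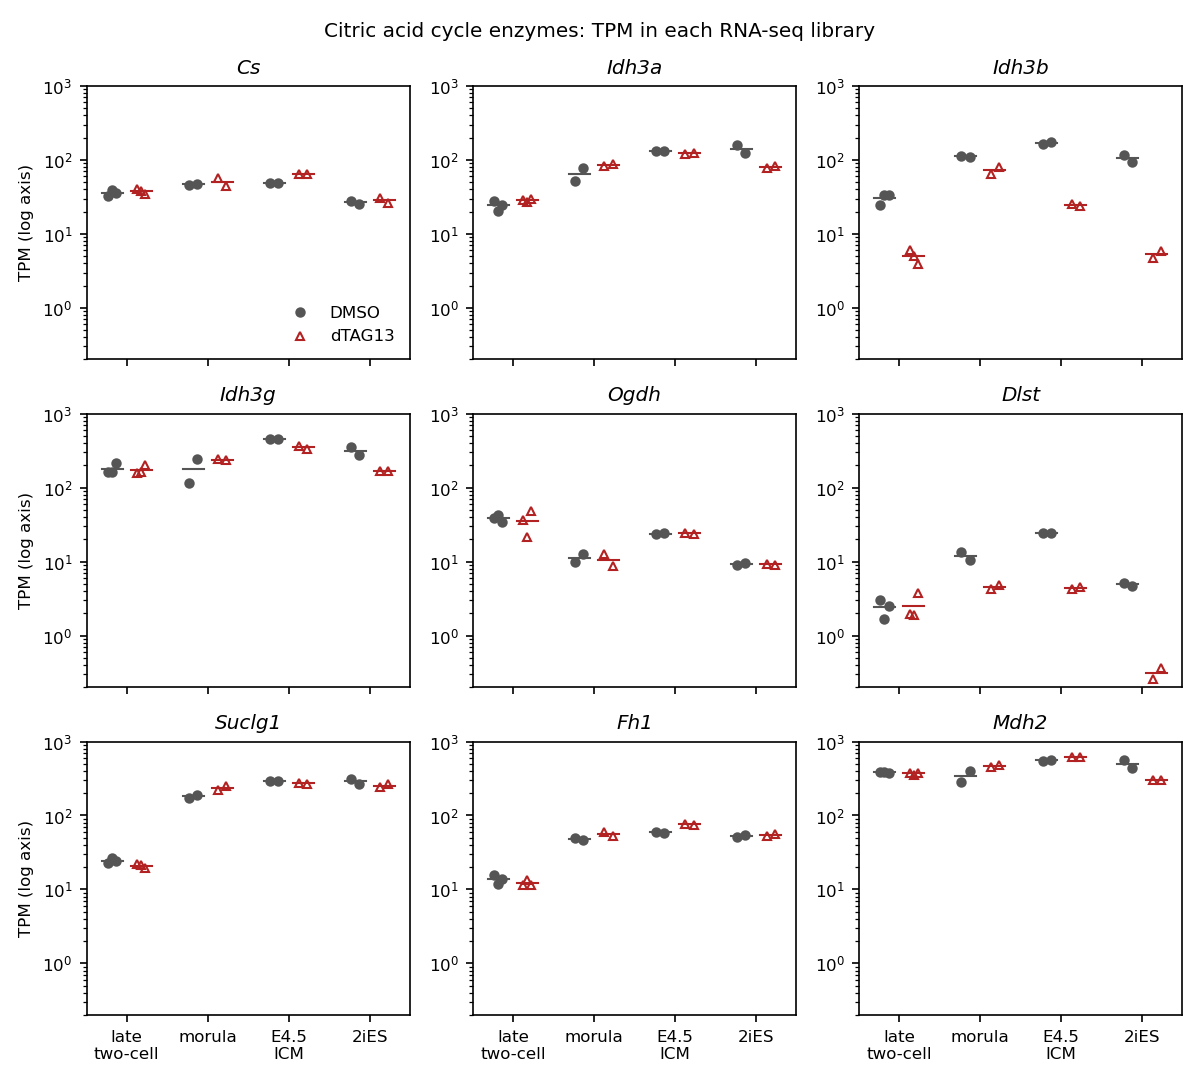
TPM of the 9 members in each of the 18 RNA-seq libraries, on a log axis, for DMSO (filled circles) and dTAG13 (open triangles), with the group mean as a line. *Idh3b* and *Dlst* separate between treatments in the E4.5 ICM and 2iES cells, and *Dlst* reaches 0.26 and 0.36 TPM in dTAG13-treated 2iES cells.

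GABPA degradation lowered 2 of the 9 members by more than 2-fold, *Idh3b* and *Dlst*, and no member was called higher at any stage. In late two-cell embryos 1 member was called lower (*Idh3b*), where 3.63% of all genes tested were called lower and 0.476% higher. In morulae it was *Dlst* alone, where 0.198% of all genes were called lower and 0.154% higher. Both genes were called lower in the E4.5 ICM, where 13.2% of all genes were called lower and 12.1% higher, and in 2iES cells, where 15.6% and 12.4% were. The adjusted p-value alone added no member in late two-cell embryos, where it was met by 7.24% of all genes in the lower and 1.32% in the higher direction, or in morulae, where it was met by 0.205% and 0.161%. By that rule 5 members were lower and 4 higher in the E4.5 ICM, where 38.5% and 38.4% of all genes were. In 2iES cells 5 members were lower and none higher by that rule, where 28.1% and 26.5% of all genes were. The median log2 fold change of the members was -0.13 at the late two-cell stage, 0.40 in morulae, -0.14 in the E4.5 ICM and -0.66 in 2iES cells, against 0.02, -0.02, 0.01 and 0.03 for all genes tested.

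**Figure D3:**
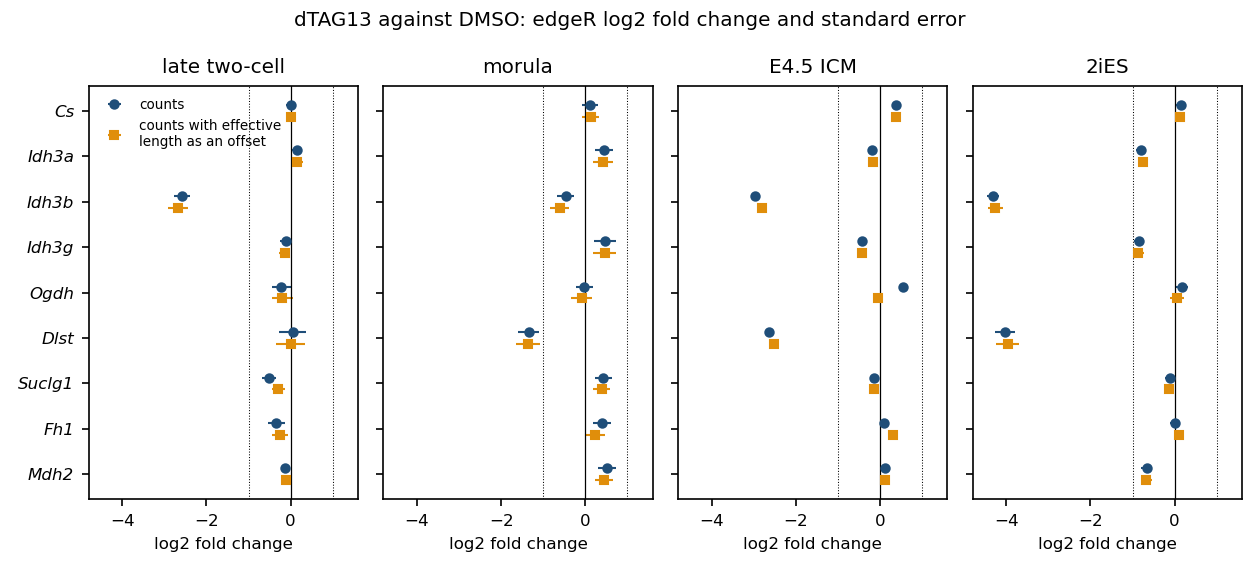
Log2 fold change of dTAG13 against DMSO with its standard error for each member at 4 stages, from edgeR on expected counts (circles) and with the RSEM effective length as an offset (squares); dotted lines mark a fold change of 2. *Idh3b* and *Dlst* lie beyond -2.5 in the E4.5 ICM and 2iES cells in both fits, and *Ogdh* in the E4.5 ICM is at 0.55 by counts and at -0.04 with the offset.

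*Idh3b* (ENSMUSG00000027406.13, chromosome 2 from 130279309 to 130284547, minus strand) encodes the beta subunit of the NAD-dependent isocitrate dehydrogenase. Its level at the late two-cell stage was 24.7, 33.4 and 33.2 TPM with DMSO and 6.12, 4.97 and 3.89 TPM with dTAG13, so every treated library lay below every control. The log2 fold change was -2.59 (SE 0.19, adjusted p = 1.44e-05), a 6.00-fold fall. In morulae it was at 112 and 111 TPM with DMSO and 64.7 and 79.4 TPM with dTAG13. The treated libraries were again the lower ones, but the log2 fold change of -0.47 (SE 0.20) had an adjusted p of 0.348. *Idh3b* fell in the E4.5 ICM from 162 and 174 TPM to 25.6 and 24.1 TPM, a log2 fold change of -2.98 (SE 0.04, adjusted p = 9.84e-37) or 7.92-fold. In 2iES cells it fell from 118 and 93.3 TPM to 4.72 and 5.91 TPM, a log2 fold change of -4.32 (SE 0.15, adjusted p = 1.88e-05) or 20.0-fold. The falls at these 3 stages passed the thresholds in every alternative run, and the log2 fold change ranged over them from -2.69 to -2.47, from -3.05 to -2.80 and from -4.47 to -4.14. In 2iES cells the TE markers summed to 107 to 138 TPM with DMSO and 125 to 131 TPM with dTAG13, and the EPI markers to 313 to 436 and 278 to 305 TPM. Their part in the result was not tested. *Idh3b* overlaps *Nop56* on the other strand by 5 exonic bases (0.146% of its own), and the library kits do not keep the strand.

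The other subunits of the same enzyme did not follow *Idh3b* at the late two-cell stage. *Idh3a* (ENSMUSG00000032279.11, chromosome 9 from 54586334 to 54604661, plus strand), which carries the active site, was at 27.8, 20.5 and 24.6 TPM with DMSO and 29.0, 26.8 and 29.2 TPM with dTAG13 (log2 fold change 0.14, SE 0.13, adjusted p = 0.621). *Idh3g* (ENSMUSG00000002010.17, chromosome X from 73778963 to 73786897, minus strand), the gamma subunit, was at 165, 164 and 215 TPM and at 156, 162 and 200 TPM (-0.12, SE 0.13, adjusted p = 0.661). Their groups overlapped. In 2iES cells both were lower with dTAG13 but by less than 2-fold. *Idh3a* went from 157 and 126 TPM to 79.0 and 81.8 TPM (-0.81, SE 0.12, adjusted p = 0.00190), and *Idh3g* from 352 and 281 TPM to 168 and 166 TPM (-0.84, SE 0.12, adjusted p = 0.00152). Without 2iES DMSO replicate 2 *Idh3g* was at -1.01 and passed the fold threshold, which made 3 members called lower there in place of 2. In the E4.5 ICM *Idh3g* went from 458 and 455 TPM to 363 and 338 TPM (-0.43, SE 0.03, adjusted p = 1.53e-16) and *Idh3a* from 133 TPM in both libraries to 121 and 124 TPM (-0.19, SE 0.03, adjusted p = 9.37e-07). With 1 estimate of the spread for all 18 libraries these had adjusted p-values of 0.162 and 0.455. In morulae *Idh3g* was at 114 and 241 TPM with DMSO and 242 and 239 TPM with dTAG13, and *Idh3a* at 51.8 and 78.8 TPM and at 83.7 and 88.2 TPM, neither past the threshold. The first DMSO library was the lower for both, and without the second their log2 fold changes were 1.02 (adjusted p = 0.0154) and 0.77 (adjusted p = 0.0463).

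The makeup of the isocitrate dehydrogenase transcripts changed. *Idh3b* made up 11.3, 15.3 and 12.2% of the summed TPM of *Idh3a*, *Idh3b* and *Idh3g* with DMSO at the late two-cell stage, and 3.20, 2.57 and 1.67% with dTAG13. In morulae the share was 40.3 and 25.8% and fell to 16.6 and 19.6%. *Idh3b* itself did not pass the threshold there, and the first DMSO library was the lower for *Idh3a* and *Idh3g*. From counts over a mean length, the morula means were 26.8% with DMSO and 15.4% with dTAG13, in place of 33.0 and 18.1%. In the E4.5 ICM it went from 21.5 and 22.8% to 5.02 and 4.96%, and in 2iES cells from 18.8 and 18.7% to 1.87 and 2.33%. Treated and control libraries did not overlap at any of the 4 stages. These shares are given as a description and were not tested.

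*Dlst* (ENSMUSG00000004789.10, chromosome 12 from 85110833 to 85134845, plus strand) encodes the E2 subunit, the dihydrolipoamide succinyltransferase at the core of the 2-oxoglutarate dehydrogenase complex, which bears its lipoyl group. At the late two-cell stage it was at 3.07, 1.70 and 2.55 TPM with DMSO and 1.93, 1.88 and 3.82 TPM with dTAG13, and the groups overlapped (log2 fold change 0.05, SE 0.32, adjusted p = 0.957). In morulae it was at 13.3 and 10.4 TPM with DMSO and 4.32 and 4.81 TPM with dTAG13, a log2 fold change of -1.35 (SE 0.25, adjusted p = 0.0302). This call rested on single libraries, with values of -1.19 without DMSO replicate 1 (adjusted p = 0.0883) and -1.23 without dTAG13 replicate 1 (adjusted p = 0.115), and the effective length as an offset gave -1.36 (adjusted p = 0.0799). *Dlst* fell in the E4.5 ICM from 24.4 and 24.3 TPM to 4.22 and 4.60 TPM, a log2 fold change of -2.64 (SE 0.08, adjusted p = 5.50e-27) or 6.23-fold. In 2iES cells it fell from 5.09 and 4.73 TPM to 0.26 and 0.36 TPM, which rest on expected counts of 20 and 14 against 337.12 and 322. The log2 fold change of -4.03 (SE 0.23, adjusted p = 5.28e-05) is a 16.3-fold fall. Both falls passed the thresholds under every alternative, between -2.67 and -2.52 and between -4.15 and -3.85.

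*Ogdh* (ENSMUSG00000020456.17, chromosome 11 from 6291633 to 6356642, plus strand), the E1 subunit that binds thiamine diphosphate, stayed level by TPM where *Dlst* fell. In E4.5 ICM libraries it was at 23.8 and 24.2 TPM with DMSO and 24.5 and 24.0 TPM with dTAG13, and at 8.89 and 9.54 TPM and at 9.36 and 9.12 TPM in 2iES cells. By counts it was higher in the E4.5 ICM (log2 fold change 0.55, SE 0.05, adjusted p = 1.15e-11, and 0.0554 with 1 spread for all 18 libraries), but with the effective length as an offset it was at -0.04 (adjusted p = 0.593). At the late two-cell stage it was at 38.4, 43.2 and 34.2 TPM and at 36.4, 21.4 and 48.6 TPM, and the treated libraries reached both below and above all controls. In morulae its groups overlapped at 8.66 to 12.5 TPM. Against the summed TPM of *Ogdh*, *Dlst* and *Dld*, the share of *Dlst* in the E4.5 ICM went from 21.4 and 21.3% to 4.18 and 4.77%. In 2iES cells the share went from 8.74 and 7.02% to 0.385 and 0.560%, and in morulae from 28.6 and 19.5% to 7.81 and 9.74%. It was 2.11 to 3.87% and 2.45 to 4.85% in late two-cell embryos, with overlap. *Dld*, whose product also serves pyruvate dehydrogenase, was in the E4.5 ICM at 65.9 and 65.8 TPM without and 72.3 and 67.8 TPM with dTAG13.

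**Figure D4:**
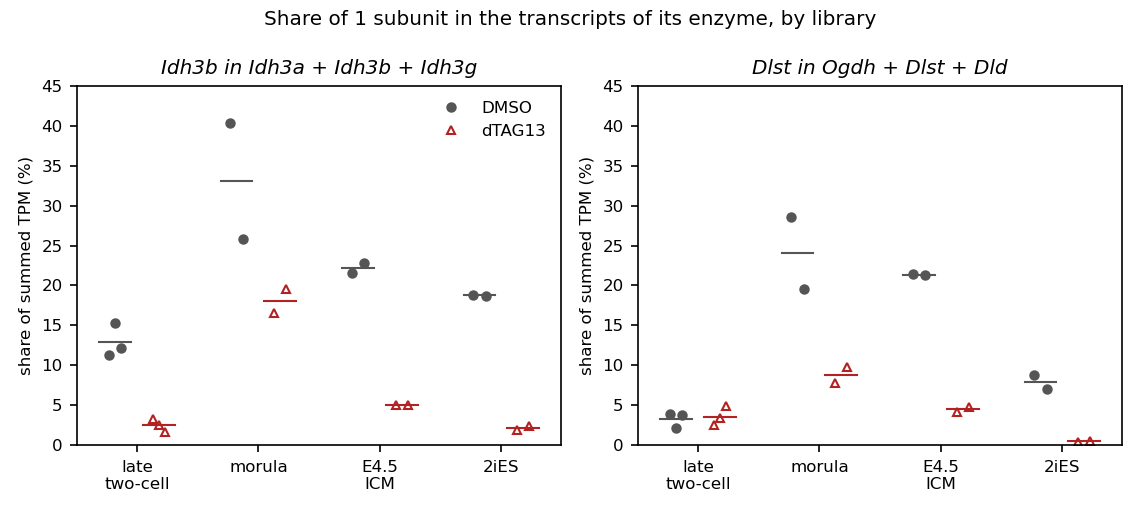
Share of *Idh3b* in the summed TPM of the isocitrate dehydrogenase subunits (left) and of *Dlst* in that of the 2-oxoglutarate dehydrogenase complex (right), in percent, for each library with DMSO (filled circles) or dTAG13 (open triangles) and the group mean as a line. With dTAG13 the *Idh3b* share lies below all controls at all 4 stages, and the *Dlst* share does so in morulae, the E4.5 ICM and 2iES cells.

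*Cs* (ENSMUSG00000005683.8, chromosome 10 from 128337734 to 128362479, plus strand) rose in the E4.5 ICM, from 48.6 and 48.4 TPM to 65.5 and 64.3 TPM (log2 fold change 0.38, SE 0.03, adjusted p = 1.68e-12). The rise kept an adjusted p-value under 0.05 in all 12 alternatives, with a log2 fold change of 0.35 to 0.48. At the other stages it did not pass, at 0.00 (SE 0.12), 0.12 (SE 0.19) and 0.15 (SE 0.12) in late two-cell embryos, morulae and 2iES cells, and upper quartile scaling gave 0.34 in 2iES cells (adjusted p = 0.0449). Of the sequence of *Cs*, 5.97% of its 31-base words also occur in other genes, mostly *Csl*.

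*Mdh2* (ENSMUSG00000019179.10, chromosome 5 from 135778480 to 135790398, plus strand) was the most abundant member in every group. In 2iES cells it went from 566 and 432 TPM to 299 and 303 TPM (log2 fold change -0.66, SE 0.13, adjusted p = 0.00622), under the fold threshold. It went the other way in the E4.5 ICM, from 547 and 563 TPM to 624 and 620 TPM (0.11, SE 0.02, adjusted p = 3.48e-05, and 0.545 with 1 spread for all 18 libraries). In late two-cell embryos it was at 392, 383 and 378 TPM with DMSO and 376, 358 and 377 TPM with dTAG13, which do not overlap but differ by a log2 fold change of only -0.13 (SE 0.07, adjusted p = 0.347). In morulae it was at 288 and 401 TPM and at 454 and 477 TPM (0.52, SE 0.21, adjusted p = 0.314), and it passed without DMSO replicate 2 (0.78, adjusted p = 0.0329) and with 1 spread for all 18 libraries (0.59, adjusted p = 0.0295).

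*Suclg1* (ENSMUSG00000052738.14, chromosome 6 from 73248382 to 73276911, plus strand) and *Fh1* (ENSMUSG00000026526.14, chromosome 1 from 175600374 to 175625635, minus strand) showed no change of 2-fold or more with dTAG13. *Suclg1* was at 23.0, 26.6 and 24.1 TPM with DMSO and 22.3, 21.1 and 19.7 TPM with dTAG13 in late two-cell embryos. All 3 treated libraries lay below the controls, at a log2 fold change of -0.51 (SE 0.17, adjusted p = 0.0962). Over the alternatives it lay between -0.61 and -0.29 and passed in 2 of 14. These were DESeq2 (adjusted p = 0.0333) and 1 spread for all 18 libraries (adjusted p = 0.00887). The effective length of *Suclg1* averaged 1620 bases with DMSO and 1397 bases with dTAG13 at that stage. In the E4.5 ICM *Suclg1* was at 290 and 289 TPM and at 276 and 268 TPM (-0.14, SE 0.03, adjusted p = 1.85e-05, and 0.238 under upper quartile scaling). In 2iES cells it was at 308 and 269 TPM and at 243 and 265 TPM (-0.12, SE 0.10, adjusted p = 0.330), and without DMSO replicate 2 it reached -0.21 (adjusted p = 0.0127). *Fh1* went in the E4.5 ICM from 60.7 and 58.7 TPM to 77.7 and 74.9 TPM, without overlap. By counts its log2 fold change there was 0.10 (SE 0.05, adjusted p = 0.0441), which missed the threshold without DMSO replicate 2 (0.03, adjusted p = 0.676) and without dTAG13 replicate 1 (0.07, adjusted p = 0.227), and with the offset it was 0.30 (adjusted p = 6.11e-04). The effective length was chosen as an offset after these data were seen. In 2iES cells *Fh1* was at 51.3 and 53.6 TPM and at 52.9 and 56.6 TPM, with a log2 fold change of 0.00 (SE 0.11).

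*Ogdh* and *Fh1* are given by both measures because RSEM's effective length changed between libraries. It is an average over the transcripts of a gene, each reduced for fragment length. That of *Ogdh* was 830 to 1141 bases in late two-cell libraries and 2326 to 3203 bases in morula libraries, and in the E4.5 ICM it was 1939 and 1783 bases with DMSO and 2785 and 2790 bases with dTAG13. The files list 7 transcripts of *Ogdh*, from 621 to 4127 bases. With the length as an offset, *Ogdh* was lower in the morula than at the late two-cell stage by a log2 fold change of -1.44 (adjusted p = 4.69e-05). *Fh1*, with 5 transcripts from 539 to 2636 bases, was then higher in the morula by 2.15 (adjusted p = 3.22e-07) and level between the morula and the E4.5 ICM (-0.02, adjusted p = 0.999). With the same offset the rises of *Idh3b* (0.26, adjusted p = 0.279) and *Suclg1* (0.34, adjusted p = 0.0695) between the morula and the E4.5 ICM no longer passed. Nor did that of *Fh1* between the E4.5 ICM and 2iES cells (0.36, adjusted p = 0.125). Which transcripts the reads came from was not tested.

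**Figure D5:**
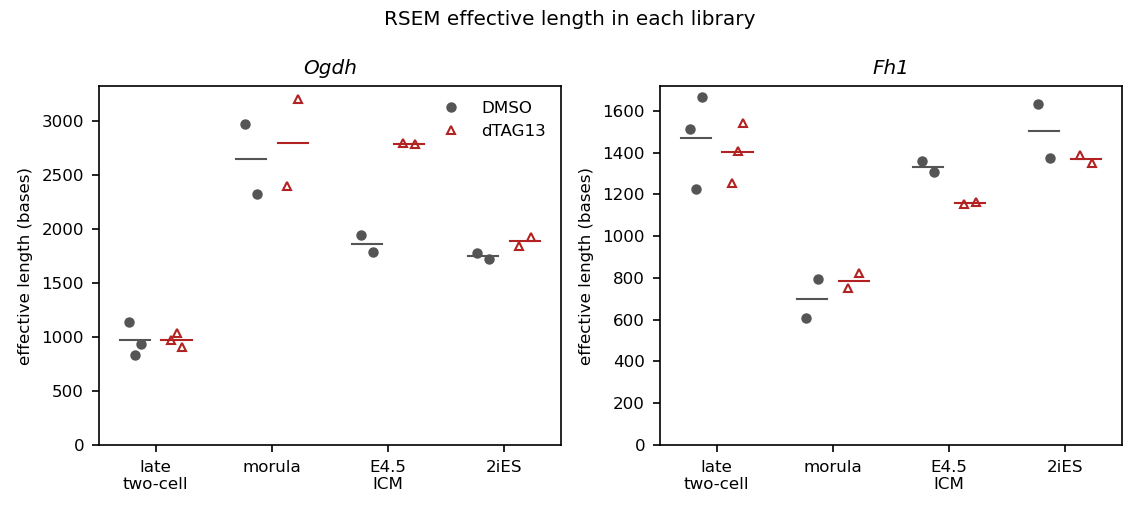
RSEM effective length in bases of *Ogdh* and *Fh1* in each library with DMSO (filled circles) or dTAG13 (open triangles), with the group mean as a line. For *Ogdh* both dTAG13 libraries of the E4.5 ICM lie at 2785 and 2790 bases and the DMSO libraries at 1783 and 1939 bases.

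Whether the effect of dTAG13 differed between stages was tested as an interaction over all 18 libraries. The fall of *Idh3b* was smaller in morulae than at the late two-cell stage by 2.21 on the log2 scale (SE 0.21, adjusted p = 3.26e-06), larger in the E4.5 ICM than in morulae (-2.58, SE 0.22, adjusted p = 7.04e-07) and larger in 2iES cells than in the E4.5 ICM (-1.29, SE 0.23, adjusted p = 8.27e-04). Between the E4.5 ICM and the late two-cell stage it did not differ past the threshold (-0.37, SE 0.21, adjusted p = 0.228). For *Dlst* the effect in the E4.5 ICM was lower than at the late two-cell stage by 2.66 (interaction -2.66, SE 0.36, adjusted p = 5.34e-05). From the late two-cell stage to the morula 1 member differed in the lower and 3 in the higher direction, where 0.680% and 5.79% of all genes did. From the morula to the E4.5 ICM 5 differed in the lower direction and none in the higher, where 10.6% and 5.44% did. From the E4.5 ICM to 2iES cells 3 differed in the lower direction and none in the higher, where 7.42% and 9.93% did, and between the late two-cell stage and the E4.5 ICM 1 (*Dlst*) in the lower direction and none in the higher, where 9.87% and 10.4% did. Of these 13 differences 5 passed in every alternative, those of *Idh3b* above, that of *Dlst* just given and that of *Suclg1* between the morula and the late two-cell stage (1.03, SE 0.19, adjusted p = 0.00223). Leaving out single libraries left 1 to 5 members lower in the E4.5 ICM than in the morula, with 1 without any of the 4 E4.5 ICM libraries or morula dTAG13 replicate 2, 2 without morula DMSO replicate 1 and 3 without morula dTAG13 replicate 1. Without morula DMSO replicate 2, 6 members differed in the higher direction between the late two-cell stage and the morula. These comparisons share libraries, and the dose differs between embryos and 2iES cells. The start and length of treatment also differ among the embryo stages, so stage and treatment window cannot be told apart.

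The 39 other genes around the cycle stand in 4 hand-written lists. They cover the other cycle enzymes (9 genes), pyruvate entry (14), lipoate synthesis (4) and cytosolic and side routes (12). Of 38 tested in late two-cell embryos 1 was called lower and none higher, where 3.63% of all genes were called lower and 0.476% higher. In morulae none of 38 was called in either direction, where 0.198% and 0.154% of all genes were. In the E4.5 ICM 6 of 39 were called lower and 1 higher, beside 13.2% and 12.1% of all genes, and in 2iES cells 7 lower and 2 higher, beside 15.6% and 12.4%. Their median log2 fold change was 0.02, 0.31, -0.03 and -0.33 at the 4 stages, against 0.02, -0.02, 0.01 and 0.03 for all genes. By list, 1 of the other cycle enzymes, 2 of pyruvate entry, 1 of lipoate synthesis and 2 of the side routes were called lower in the E4.5 ICM, and 3, 0, 1 and 3 in 2iES cells.

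*Sdhd*, the membrane anchor subunit of succinate dehydrogenase, was called at the late two-cell stage, where it went from 52.4 ± 3.07 TPM (SD, n = 3) to 19.3 ± 1.68 TPM (log2 fold change -1.51, SE 0.14, adjusted p = 5.64e-05), and in 2iES cells, from 375 ± 8.85 TPM (n = 2) to 172 ± 3.52 TPM (-1.05, SE 0.09, adjusted p = 2.42e-04). Its value in the E4.5 ICM was -0.13 (SE 0.03). The other 4 genes called at 2 stages were lower in the E4.5 ICM and in 2iES cells. *Idh2*, the NADP-dependent mitochondrial isocitrate dehydrogenase, went from 169 ± 8.39 to 84.7 ± 0.134 TPM in the E4.5 ICM (-1.04, SE 0.03) and from 77.4 ± 19.3 to 22.1 ± 0.530 TPM in 2iES cells (-1.86, SE 0.18). *Slc25a1*, the citrate carrier, went from 27.4 ± 0.276 to 12.6 ± 1.43 TPM (-1.22, SE 0.07) and from 16.0 ± 4.60 to 3.28 ± 0.276 TPM (-2.31, SE 0.23). *Slc25a11*, the carrier of 2-oxoglutarate and malate, went from 66.4 ± 3.19 to 28.6 ± 0.474 TPM (-1.23, SE 0.05) and from 51.2 ± 8.30 to 13.2 ± 1.33 TPM (-1.90, SE 0.16). *Lipt1*, which transfers lipoyl groups to enzymes such as the one *Dlst* encodes, went from 3.64 ± 0.0849 to 1.13 ± 0.339 TPM (-1.77, SE 0.24) and from 5.45 ± 0.771 to 2.45 ± 0.290 TPM (-1.07, SE 0.22). Their adjusted p-values lay between 1.35e-26 and 0.00609.

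Genes with a pattern like that of the 2 called members were sought among 6393 genes with a unique symbol and a mean of at least 10 TPM, by Pearson's r of log2(TPM + 1) over the 18 libraries, which share stages and controls. The nearest to *Idh3b* were *Rab24* (r = 0.982), *Tmem234* (r = 0.974) and *Exosc4* (r = 0.973). *Rab24* had log2 fold changes of -2.09, -0.49, -2.94 and -3.22 at the 4 stages, in the order given above. The nearest to *Dlst* were *Tm9sf3* (r = 0.918), *Cpsf3* (r = 0.905) and *Eif2d* (r = 0.895). Their log2 fold changes were -1.82, -2.59 and -1.89 in 2iES cells and -1.19, -0.99 and -1.27 in the E4.5 ICM. In morulae, where *Dlst* was called lower, they were -0.89, 0.08 and -0.08. At the late two-cell stage, where *Dlst* was not called, they were 0.02, -0.74 and 0.33. Between *Idh3b* and *Dlst* themselves r was 0.806.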

How the data were processed

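RNA-seq was analysed in 18 libraries (SMART-Seq v4 and Nextera XT kits, which do not keep the strand), and the other 27 libraries of the series were not analysed here. Adaptors were removed by the authors with Trimmomatic 0.39, STAR placed the reads on GRCm38 and RSEM counted them by gene. The authors deposited for each library the expected counts (not scaled), the TPM and FPKM values (scaled by length and depth) and the effective lengths.

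Expected counts were rounded and tested with edgeR 4.0.16 (R 4.3.3, quasi-likelihood test, TMM scaling, Benjamini-Hochberg adjustment over all genes tested), for genes with 10 or more counts in 3 late two-cell libraries or in 2 libraries otherwise. The dTAG13 comparisons had a fit for each stage, the DMSO stage comparisons 1 fit of 9 libraries, and the differences between stages 1 fit of 18 libraries. Calling took an adjusted p below 0.05, a difference of 2-fold or more and an FPKM averaging 1 or more in either group. All 9 members were named whatever their values, with other pathway genes called at 2 or more stages, and the 3 nearest patterns to each member called at 2 or more stages. The members and lists were chosen with earlier results of these data known. The fits were tested on simulated counts. Replicates of a group differed by 1.62 to 16.09 times the sampling noise, and least in the E4.5 ICM (1.62 with DMSO and 1.69 with dTAG13). This ratio cannot tell separate samples from separate preparations of 1 sample. The libraries were treated as separate, and the low p-values of the E4.5 ICM rest on this small spread. Alternatives were other scalings, no filter, DESeq2 1.42.0, limma 3.58.1 with voom, all libraries in 1 fit, a replicate block, leaving out each library and, chosen after seeing the data, the effective length as an offset and a crossed block. Promoter windows came from RefSeq (GRCm38.p6).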

Additional observations from a re-analysis of the deposited data

Results flagged for a closer look

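The effect of dTAG13 differed between stages past the threshold for 13 pairs of member and stage difference (edgeR's quasi-likelihood test of the interaction over 18 libraries, Benjamini-Hochberg adjustment over 21915 genes). Groups hold 2 or 3 libraries, too few for a test of outlying libraries.

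*Idh3b* differed by 2.21 on the log2 scale between the morula and the late two-cell stage, by -2.58 between the E4.5 ICM and the morula and by -1.29 between 2iES cells and the E4.5 ICM, *Suclg1* by 1.03 between the morula and the late two-cell stage (adjusted p = 0.00223), and *Dlst* by -2.66 between the E4.5 ICM and the late two-cell stage. These 5 passed in every alternative run, leaving out any library included.

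The other 8 depended on single libraries or settings. Between the morula and the late two-cell stage, *Dlst* differed by -1.30 (adjusted p = 0.0354), which was lost without morula DMSO replicate 1 (-1.15) or either morula dTAG13 library (-1.22 and -1.39), and *Mdh2* by 0.73 (adjusted p = 0.0175), which passed in 5 of 15 alternatives, between 0.50 and 1.01, and in no fit without 1 of the late two-cell libraries, morula DMSO replicate 1 or morula dTAG13 replicate 2. Between the E4.5 ICM and the morula, *Dlst* differed by -1.36 (adjusted p = 0.0214, under 0.05 in 5 of 13 alternatives, -1.51 to -1.15), *Idh3g* by -0.95 (adjusted p = 0.0421, 4 of 13, -1.52 to -0.54), *Idh3a* by -0.70 (adjusted p = 0.0463, 2 of 13, -1.03 to -0.42) and *Suclg1* by -0.63 (adjusted p = 0.0437, 5 of 13, -0.78 to -0.43). Without any 1 of the E4.5 ICM libraries, none of these 4 passed. Between 2iES cells and the E4.5 ICM, *Dlst* differed by -1.34 (adjusted p = 0.0389), which no fit without 1 of the libraries of these stages kept under 0.05, and *Mdh2* by -0.73 (adjusted p = 0.0164), which was lost without 2iES DMSO replicate 1 (-0.55) or either 2iES dTAG13 library (-0.74 and -0.71).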

How the results depend on the processing

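The falls of *Idh3b* at the late two-cell stage, in the E4.5 ICM and in 2iES cells, and of *Dlst* in the last 2, were called in every alternative. Of the alternatives that leave out no library, 596 of the single-member values kept direction and call, 18 turned, 20 gained and 32 lost an adjusted p under 0.05. For the values below the cause was not tested. With the effective length as an offset the log2 values that turned were 0.00 for *Dlst* at the late two-cell stage, -0.04 for *Ogdh* in the E4.5 ICM, 0.11 for *Fh1* in 2iES cells, -0.02 for *Fh1* between the morula and the E4.5 ICM, and -0.04 and 0.16 for the *Ogdh* differences in effect of the E4.5 ICM from the morula and of 2iES cells from the E4.5 ICM. Members called were then 0 lower in morulae, 1 lower from the late two-cell stage to the morula, 1 higher from there to the E4.5 ICM, and 0 and 3 lower for the effect differences morula minus late two-cell and E4.5 ICM minus morula. With all 18 libraries in 1 fit *Cs* was at -0.01 at the late two-cell stage, *Ogdh* at 0.07 in morulae and *Fh1* at 0.06 in 2iES cells. Upper quartile scaling, which moved the median of all genes in 2iES cells to 0.21, gave 0.06 for *Suclg1* and 0.18 for *Fh1* there. Library totals gave 0.04 for *Fh1* in 2iES cells, -0.38 for *Idh3g* and -0.03 for *Mdh2* between the E4.5 ICM and 2iES cells, -0.03 for *Cs* in morula minus late two-cell, -0.01 for *Suclg1* in 2iES minus E4.5 ICM, and 1 member higher from morula to E4.5 ICM, 2 lower from there to 2iES and 1 lower for E4.5 ICM minus morula (2 with DESeq2's size factors). Without a fold threshold 5 members were lower and 4 higher in the E4.5 ICM and 5 lower in 2iES cells. By limma-voom 0 were lower for morula minus late two-cell and 2 higher for E4.5 ICM minus late two-cell.

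Same-numbered libraries did not deviate together (correlations of 0.01 to 0.055 in embryos and -0.133 in 2iES cells), so the numbers were not taken to pair them. The replicate block left the members called unchanged in the dTAG13 and DMSO comparisons, gave 0.00 for *Fh1* in 2iES cells and 1 member higher for E4.5 ICM minus late two-cell, and raised calls over all genes in morulae to 142 lower and 106 higher from 27 and 21. The crossed block in 2iES cells gave 2411 lower and 2019 higher, and 0.00 for *Fh1*.

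Leaving out 1 library gave ranges of -0.07 to 0.10 for *Cs*, -0.23 to 0.00 for *Idh3g* and -0.32 to 0.22 for *Dlst* at the late two-cell stage, -0.01 to 0.27 for *Cs* and -0.03 to 0.01 for *Ogdh* in morulae (0 to 1 members called lower and 0 to 1 higher), and -0.10 to 0.05 for *Fh1* in 2iES cells (2 to 3 members called lower). From the late two-cell stage to the morula they were -0.17 to 0.80 for *Idh3g*, -0.15 to 0.08 for *Ogdh* and -0.16 to 0.35 for *Mdh2*. From the morula to the E4.5 ICM 0 to 3 members were called higher, and between the E4.5 ICM and 2iES cells *Idh3g* ranged from -0.04 to 0.23. For the differences in effect the ranges were 0 to 1 lower, 2 to 6 higher, -0.04 to 0.36 for *Cs* and -0.07 to 0.35 for *Ogdh* in morula minus late two-cell, 1 to 5 lower in E4.5 ICM minus morula, 1 to 2 lower and -0.17 to 0.00 for *Fh1* in 2iES minus E4.5 ICM, and 0 to 1 higher in E4.5 ICM minus late two-cell. Subunit shares from counts over a mean length moved by more than 1 SD in 8 of 16 groups. Morula libraries held 9457933 to 12382705 counts and *Dlst* in treated 2iES cells 20 and 14, and the part of depth was not tested.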

Other observations

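By the gene coordinates given above, *Idh3g* starts 131 bases from *Ssr4*, which encodes a subunit of the translocon-associated complex and runs on the other strand. *Ssr4* had log2 fold changes with dTAG13 of -0.54 (SE 0.18, adjusted p = 0.0972) at the late two-cell stage, 0.32 (SE 0.20, adjusted p = 0.520) in morulae, -0.24 (SE 0.03, adjusted p = 7.46e-10) in the E4.5 ICM and -1.08 (SE 0.10, adjusted p = 2.53e-04) in 2iES cells, beside -0.12, 0.46, -0.43 and -0.84 for *Idh3g* in the same edgeR fits. *Styxl1*, 95 bases from *Mdh2*, was tested only at the late two-cell stage, at 0.77 (SE 0.53, adjusted p = 0.470) beside -0.13 for *Mdh2*, and *Prox2*, 74 bases from *Dlst*, was tested at no stage. Among the members themselves *Suclg1* and *Fh1* had the most alike patterns over the 18 libraries (r = 0.983 of log2(TPM + 1)), which share stages and controls.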
